A study of Mus musculus with 8 samples.

Results

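The S100 proteins are small calcium sensors of the EF-hand superfamily, and 10 of their genes were followed here in mammary tumor organoids with and without SOX4. The genes were chosen by name as a family, with no measured value in the rule: S100a1, S100a4, S100a6, S100a8, S100a9, S100a10, S100a11, S100a13, S100a14 and S100a16. All 10 were among the 38293 gene identifiers of the bulk tables, and 9 had a row among the 15150 genes of the single-cell tables, where S100a9 was not analysed. The organoids came from a mouse breast tumor model that carries MMTV-PyMT, MMTV-Cre and Ecadherin-mCFP, in which the mammary MMTV promoter drives the polyoma middle T oncogene. Control lines and CRISPR/Cas9 SOX4KO lines, each a clone, shared this background and were grown for 4 days in Matrigel with B27 and FGF2. Bulk RNA-sequencing covered 2 control lines (WT1, WT3) and 3 SOX4KO lines (H7, M4, H4). Single-cell RNA-sequencing covered 1 control library (GR17) and 2 SOX4KO libraries (GR18, GR19), and the labels do not tie these to the bulk lines.

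Most S100 proteins act as dimers that open a binding surface when they take up calcium and then grip partners such as annexins, myosin chains or receptors. Most of the genes sit next to each other in one chromosomal cluster, on chromosome 3 in the mouse, close to the genes of the skin barrier. In the mammary gland and its tumors, S100a4 is known for cell motility and metastasis, S100a6 (calcyclin) and S100a10 (the light chain of the annexin A2 complex) for growing epithelium, and S100a8 with S100a9 (calprotectin) for neutrophils and for inflamed or secretory epithelium.

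Promoter sequences are shown for 4 members, as RefSeq gives them for GRCm38.p6, from 250 bases before to 50 bases after the start of the transcript. The 4 were chosen after their values were seen: S100a6 as the member that passed the test in bulk, S100a1 for its shared start with S100a13, S100a8 for its level in a few cells and S100a16 for the SOX letters in its window. A promoter was found for 8 members, with 9 windows in all since S100a16 has 2, and none was shown for S100a10 and S100a14. S100a1 (chr3:90514281-90514580, minus strand) and S100a13 start head to head, and their windows share 204 bases. The others are S100a6 (chr3:90612644-90612943, plus strand), S100a8 (chr3:90668821-90669120, plus strand) and the first start of S100a16 (chr3:90537004-90537303, plus strand). Capitals mark the letters AACAANG, a loose form of the SOX core, TGANTCA, a loose form of the AP-1 site, and TATAAA, the TATA box. N stands for any base, so a match may differ from the sites that SOX and AP-1 factors bind best. Each was searched on both strands.
S100a1: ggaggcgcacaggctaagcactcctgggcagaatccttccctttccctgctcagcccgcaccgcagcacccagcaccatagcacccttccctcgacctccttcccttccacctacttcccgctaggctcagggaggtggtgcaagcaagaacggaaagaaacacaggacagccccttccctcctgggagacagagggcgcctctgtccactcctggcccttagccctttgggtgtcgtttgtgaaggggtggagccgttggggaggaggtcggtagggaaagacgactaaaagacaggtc
S100a6: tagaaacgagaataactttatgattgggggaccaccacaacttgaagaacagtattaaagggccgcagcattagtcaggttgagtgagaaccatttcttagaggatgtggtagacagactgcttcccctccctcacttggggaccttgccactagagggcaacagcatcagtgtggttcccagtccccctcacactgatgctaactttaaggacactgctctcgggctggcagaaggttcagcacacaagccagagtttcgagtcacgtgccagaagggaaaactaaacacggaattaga
S100a8: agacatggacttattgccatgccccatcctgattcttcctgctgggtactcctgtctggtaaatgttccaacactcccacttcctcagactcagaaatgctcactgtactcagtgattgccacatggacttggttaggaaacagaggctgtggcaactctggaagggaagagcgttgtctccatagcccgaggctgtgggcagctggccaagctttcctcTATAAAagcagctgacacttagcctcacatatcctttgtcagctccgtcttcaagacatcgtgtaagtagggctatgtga
S100a16: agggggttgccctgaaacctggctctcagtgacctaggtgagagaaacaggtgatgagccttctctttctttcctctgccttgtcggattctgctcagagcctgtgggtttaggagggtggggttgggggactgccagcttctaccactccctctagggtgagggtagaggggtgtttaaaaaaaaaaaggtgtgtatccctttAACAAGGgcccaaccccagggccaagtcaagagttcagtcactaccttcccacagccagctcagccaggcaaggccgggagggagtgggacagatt
The S100a8 window held TATAAA with its first base 30 bases before the start, where a TATA box usually lies, and the S100a4 window held it 31 bases before the start. The S100a9 window held it too, but with its first base at the start of the transcript itself. The SOX letters occurred in both S100a16 windows and in the S100a9 window, and in none of the windows of S100a1, S100a4, S100a6, S100a8, S100a11 and S100a13. The match read AACAAGG in S100a9 and in the first S100a16 window, and CATTGTT in the second S100a16 window. With any base at N, the SOX letters occurred in 14.1% of all 32851 promoters of this length, against 7.81% for the AP-1 letters and 13.6% for TATAAA. The AP-1 letters were found in the S100a11 window, at 2 places, and in the second window of S100a16, where they read TGAATCA. These matches describe the letters and do not show a bound site.

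The libraries were of moderate depth. Reads counted on genes came to 3050323 to 4678497 per bulk line, and the share of uniquely aligned reads outside genes was highest in M4, at 64.7%, against 46.6% to 55.6% in the other 4 lines. Wells with at least 1000 UMIs (unique molecular identifiers, 1 per captured transcript) numbered 369, 369 and 362 in GR17, GR18 and GR19, with 7714119, 8009481 and 8296953 UMIs and medians of 19845 to 21876 UMIs per cell. Sox4 transcripts, which a small indel need not remove, were at 295 and 374 CPM (normalized counts, scaled to a common library total) in WT1 and WT3 and at 199, 179 and 299 in H7, M4 and H4, with an edgeR log2 fold change of -0.57 (SE 0.25, adjusted p = 0.277), and at 118, 82.5 and 110 CPM in the cells of GR17, GR18 and GR19. The epithelial markers Epcam, Cdh1, Krt8, Krt18 and Cldn7 were all counted in every library, and of the 4 endothelial and 13 blood-cell markers 0 and 2 passed the count filter in bulk. Of 6 fibroblast markers 3 passed it (Col1a1, Dcn and Pdgfra). Col1a1 was at 219 and 97.6 CPM in WT1 and WT3 and at 48.3, 71.3 and 61.3 CPM in H7, M4 and H4.

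In bulk, S100a6 was higher in the SOX4KO lines than in the control lines, and it was the 1 member of the 8 tested that passed the test. It was called at an adjusted p under 0.1 (edgeR quasi-likelihood test with Benjamini-Hochberg adjustment over all genes), the threshold of the study. Thus 1 of 8 members was called higher and 0 of 8 lower, where 4.10% of all genes were called higher and 2.17% lower. DESeq2 called 3 higher (S100a6, S100a10 and S100a13) and 0 lower, against 5.79% and 2.76% of all genes. S100a4 passed the count filter through the SOX4KO lines alone, so it had to differ and is left out of the next counts. The other 7 members had a median log2 fold change of 0.82, against 0.01 over all 11682 genes tested. At an unadjusted p under 0.05, 4 of these 7 were higher and 0 lower, against 10.4% and 7.68% of all genes. In 4 of the 7 (S100a1, S100a6, S100a10 and S100a13) all SOX4KO lines lay above both control lines, which 19.0% of all genes did, and in 0 of the 7 did all lie below, as 17.9% of all genes did. In a bulk sample, more cells of a type that makes a transcript and more transcript per cell cannot be told apart.

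**Figure D1:**
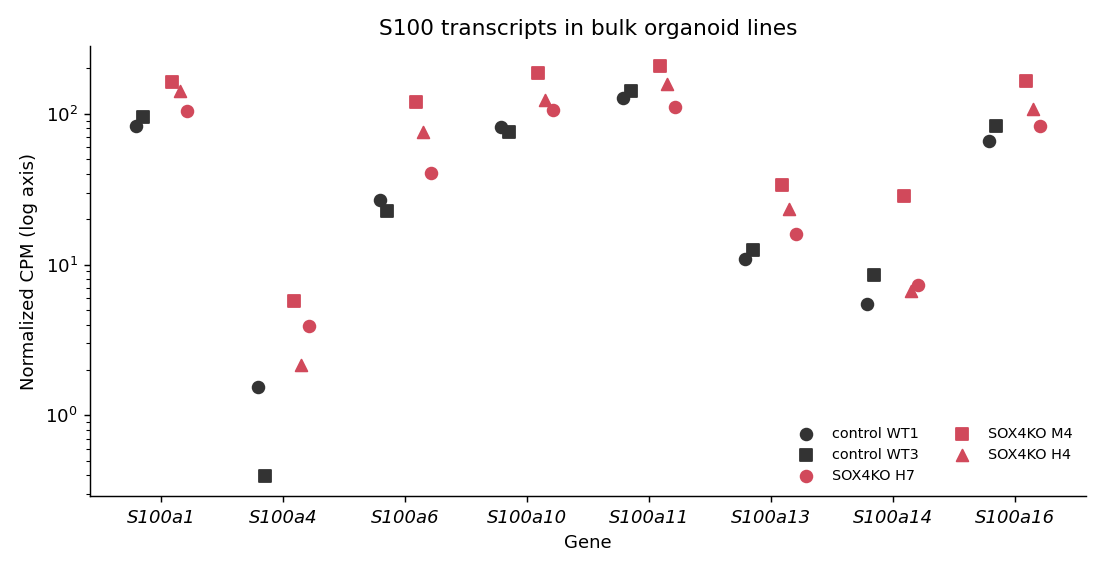
Normalized CPM (log axis) of the 8 tested S100 genes in each bulk line, with 1 point per line, controls in grey and SOX4KO lines in red. M4, the red square, is the highest point for each of the 8 genes, and S100a6 ranges from 22.7 and 26.9 in the controls to 40.2, 75.4 and 119 in the SOX4KO lines.

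S100a6, which binds annexins and the ubiquitin ligase adaptor encoded by Cacybp, stood at 26.9 and 22.7 CPM in WT1 and WT3 and at 40.2, 119 and 75.4 CPM in H7, M4 and H4. All 3 SOX4KO lines were above both controls, and the 3 spread over a wider range than the controls did. Its log2 fold change was 1.65 (SE 0.41), with an adjusted p of 0.0754 by edgeR and 0.00201 by DESeq2.

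S100a10, which holds annexin A2 in a complex at the cell membrane, was at 81.0 and 75.1 CPM in WT1 and WT3 and at 105, 185 and 123 CPM in H7, M4 and H4. The groups did not overlap, and the log2 fold change was 0.82 (SE 0.25, edgeR adjusted p = 0.137). S100a13, known for the release of FGF1 from cells, was lower in level, at 10.9 and 12.55 CPM in the controls and 15.9, 33.8 and 23.5 CPM in H7, M4 and H4. Here too the SOX4KO lines were all above the controls, with a log2 fold change of 1.04 (SE 0.34, edgeR adjusted p = 0.149).

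S100a1, best known as a calcium sensor of muscle, was at 82.6 and 94.8 CPM in the controls and at 103, 162 and 140 CPM in H7, M4 and H4. The lowest SOX4KO line, H7, was close to the higher control, and the log2 fold change was 0.61 (SE 0.22, edgeR adjusted p = 0.198). S100a4, a regulator of non-muscle myosin, was barely detected, with 6 and 2 reads in the controls and 15, 16 and 9 reads in H7, M4 and H4, or 1.55, 0.398, 3.91, 5.76 and 2.16 CPM. Its log2 fold change of 2.02 (SE 0.72, edgeR adjusted p = 0.190) rests on these few reads. In the GENCODE models the S100a4 gene overlaps Gm42674 on the same strand, so that some of its reads may not be assignable.

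For the remaining members the groups overlapped. S100a16 was at 66.0 and 83.2 CPM in the controls and 82.2, 166 and 108 CPM in H7, M4 and H4, so that H7 lay just under WT3 (log2 fold change 0.66, SE 0.29, edgeR adjusted p = 0.284). S100a14, a member found mainly in epithelia, was at 5.44 and 8.56 CPM in the controls and 7.31, 28.4 and 6.71 CPM in H7, M4 and H4, and only M4 was above both controls. Its log2 fold change of 0.95 (SE 0.65, edgeR adjusted p = 0.499) was -0.02 when M4 was left out. S100a11, a partner of annexin A1, was at 127 and 140 CPM in the controls and 110, 206 and 158 CPM in H7, M4 and H4, with a log2 fold change of 0.24 (SE 0.26, edgeR adjusted p = 0.702).

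S100a8 and S100a9, which together form calprotectin, were not testable in bulk. S100a8 had 2 and 5 reads in the controls and 0, 5 and 1 reads in H7, M4 and H4, and S100a9 had 0 reads in all 5 lines, which allows a level of up to 0.597 to 1.08 CPM per line for counting error alone.

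Among the SOX4KO lines M4 had the most S100 transcript. M4 was the highest of the 5 lines for all 7 tested members other than S100a4, whereas it was so for 25.5% of all genes tested. S100a4 was also highest in M4, but it passed the count filter through the SOX4KO lines alone and is left out of this count. The summed level of the 10 members was 402 and 439 CPM in WT1 and WT3, 468 in H7, 637 in H4 and 907 in M4. M4 was also the line with the highest share of reads outside genes, and the part of that in its S100 levels was not tested. Without M4, S100a6 was still called higher (log2 fold change 1.22, edgeR adjusted p = 0.0829). Without WT1 or without WT3 its adjusted p was 0.275 or 0.506 and no member was called, and the genes called higher fell from 4.10% to 0.774% and 0.252% of all tested. Without H7 4 members were called (S100a1, S100a6, S100a10 and S100a13), where 3.51% of all genes were called higher.

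Per length of their exons, the members differed in bulk level over a wide range. In the controls S100a11 was the most abundant, at a mean of 262 CPM per kilobase of exon, followed by S100a1 at 128, S100a10 at 64.4 and S100a16 at 46.2. S100a6 (18.2) and S100a13 (16.4) came next in the controls, and each of these was below S100a16 in both lines. S100a6 and S100a13 overlapped each other there. In the SOX4KO lines S100a6 had a mean of 57.2 CPM per kilobase, and its values in H7, M4 and H4, at 29.4, 86.9 and 55.2, overlapped those of S100a16, at 50.8, 102 and 66.5. S100a14 (4.05 in the controls) and S100a4 (1.67) were the lowest of the tested members.

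Annexins, S100 partners and receptors, other EF-hand genes, other S100 genes and cornification genes were read from lists. Over all 11682 genes the shares to compare were 4.10% called higher, 2.17% called lower and 19.0% with all SOX4KO lines above both controls. Of 10 annexins tested, 1 was called higher and 0 lower. In 7 of them all SOX4KO lines lay above both controls, and the median log2 fold change of the 10 was 0.49, against 0.01 over all genes. Anxa9 is 1 of the 7, with 5 and 9 reads in WT1 and WT3 and 21, 8 and 41 in H7, M4 and H4. It thus passed the count filter through the SOX4KO lines alone and is not read against these shares. The one called was Anxa3 (1.18, SE 0.19, edgeR adjusted p = 0.0229), while Anxa2, the partner of S100a10, had 0.66 (SE 0.20, edgeR adjusted p = 0.122). Of 12 tested partners and receptors of S100 proteins, 1 was called higher and 0 lower, namely Ahnak, a giant scaffold that binds the S100a10 and annexin A2 complex (1.01, SE 0.20, edgeR adjusted p = 0.0410). Of 24 other EF-hand genes tested, 3 were called higher and 1 lower. These were Sparc, a secreted matrix protein (1.82, SE 0.48, adjusted p = 0.0891), Efhd1, a mitochondrial calcium-binding protein (3.62, SE 0.75, adjusted p = 0.0434), and Rcn1, of the endoplasmic reticulum (1.13, SE 0.25, adjusted p = 0.0555), and, on the lower side, the neuronal calcium sensor Ncs1 (-1.53, SE 0.32, adjusted p = 0.0474), all by edgeR. Efhd1 had 10 and 7 reads in WT1 and WT3 and 170, 53 and 38 in H7, M4 and H4. Its place among the tested genes thus also rests on the SOX4KO lines, and its call is not read against these shares. None of the 7 other S100 genes with an identifier passed the filter, and of 18 cornification genes from the skin barrier, 1 was tested and 0 were called.

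Some markers of cell type also differed between the bulk groups. Of 9 basal markers tested, 3 were called higher (Oxtr, Sparc and Vim) and 0 lower. Of 14 luminal markers 1 was called higher (Esr1) and 1 lower (Cited1). Of 9 cycling markers 0 were called higher and 5 lower (Ccnb1, Mcm5, Mcm6, Mki67 and Top2a). Of 3 fibroblast markers 0 were called higher and 1 lower (Col1a1). None of the 5 epithelial and 2 blood-cell markers tested was called. The shares over all 11682 genes were 4.10% higher and 2.17% lower. The part of these markers in the S100 differences was not tested in bulk.

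In single cells the members fell into widely expressed and sparse genes, and no test was run on them, since the control was 1 library. S100a6, S100a11 and S100a10 had a UMI in nearly every cell, S100a16 and S100a1 in most, with 89.7% and 77.2% of GR17 cells, and S100a14, S100a4, S100a8 and S100a13 in 9.76% to 51.5% of the cells of a library. The median cell of GR17, GR18 and GR19 held 32, 23 and 19 UMIs of S100a6, 24, 26 and 23 of S100a11, and 13, 11 and 10 of S100a10. UMIs were summed per library and scaled to CPM, and the intervals are exact 95% Poisson intervals that cover counting error only. In GR17 the order was S100a6 at 1743 CPM (1713 to 1772), S100a11 at 1176 (1151 to 1200), S100a10 at 651 (633 to 669), S100a16 at 167 (158 to 176), S100a1 at 91.0 (84.4 to 98.0), S100a14 at 43.7 (39.1 to 48.6), S100a4 at 26.8 (23.3 to 30.7), S100a8 at 16.9 (14.1 to 20.01) and S100a13 at 11.7 (9.38 to 14.3). The intervals of S100a8 and S100a13 touched, and those of the other neighbours in this order did not. In both SOX4KO libraries S100a11 lay above S100a6, the reverse of GR17, though their intervals overlapped in GR18.

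**Figure D2:**
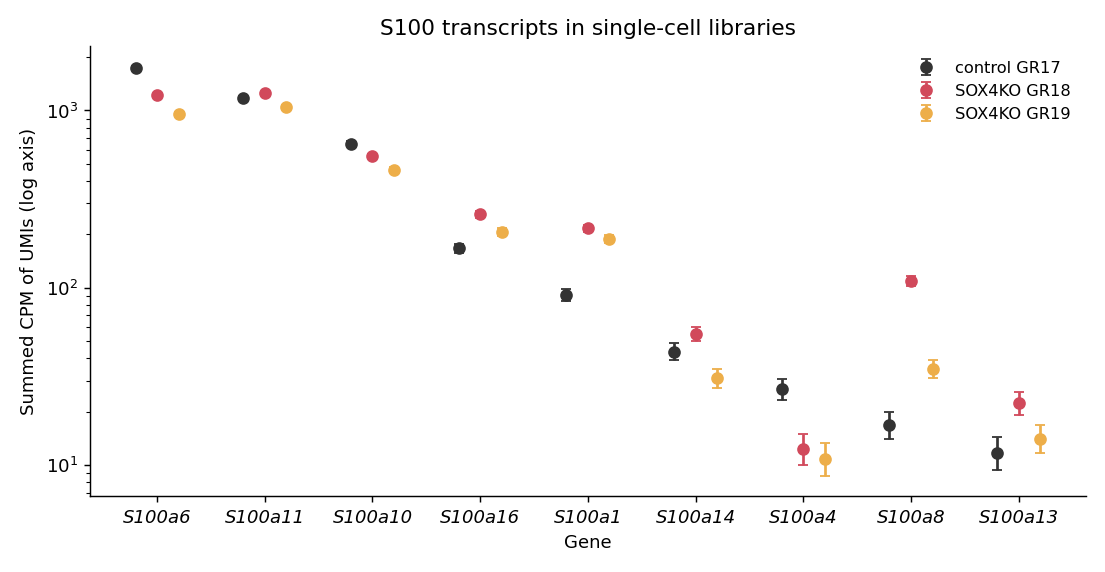
Summed CPM of UMIs (log axis) of 9 S100 genes in 1 control (GR17) and 2 SOX4KO (GR18, GR19) single-cell libraries, with exact 95% Poisson intervals for counting error. S100a1 and S100a8 lie higher in both SOX4KO libraries, S100a8 at 16.9, 110 and 35.0 CPM, and S100a6 and S100a4 lie lower in both.

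S100a1 and S100a8 were at least 2-fold higher in both SOX4KO libraries. Among the 6303 genes with a mean of at least 20 CPM, 1.92% did so, and 0.317% were at least 2-fold lower in both, as 0 of the 7 members at that level were. S100a8 was under 20 CPM in GR17 and reached that mean through the SOX4KO libraries, so its difference is not read against the 1.92%. Differences are on the log2(CPM + 1) scale. S100a1 was at 91.0 CPM in GR17, 217 in GR18 and 189 in GR19, which are differences of 1.24 and 1.05. The share of cells with an S100a1 UMI was 77.2% in GR17, 95.4% in GR18 and 95.9% in GR19, and 36.6%, 64.0% and 60.2% when each cell was scaled down to 5000 UMIs.

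S100a8 was at 16.9 CPM in GR17, 110 in GR18 and 35.0 in GR19, differences of 2.63 and 1.01, and the SOX4KO libraries differed 3-fold between themselves in this gene. It had a UMI in 9.76% of GR17 cells, 33.1% of GR18 cells and 25.4% of GR19 cells, or 3.32%, 17.1% and 10.4% at 5000 UMIs per cell. One GR18 cell held 229 of its 878 UMIs there, and 1 GR17 cell 72 of 130. Without the cell with most S100a8 UMIs in each library the levels were 7.54, 81.4 and 32.6 CPM.

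S100a4 was lower in both SOX4KO libraries, with 26.8, 12.4 and 10.8 CPM in GR17, GR18 and GR19 (differences of -1.06 and -1.23), but its mean was below 20 CPM. S100a6 was also lower, at 1743, 1220 and 961 CPM (-0.51 and -0.86), and so was S100a10, at 651, 553 and 464 CPM (-0.24 and -0.49). S100a4 had a UMI in 33.6%, 20.3% and 16.6% of cells. In all 3 genes the counting intervals of both SOX4KO libraries lay below that of GR17. S100a16 was higher in both, at 167, 260 and 207 CPM (0.64 and 0.30), and S100a13 was at 11.7, 22.3 and 14.1 CPM (0.88 and 0.25), where the intervals of GR17 and GR19 overlapped. A UMI of S100a13 was seen in 20.6%, 36.3% and 27.9% of cells. S100a11 (1176, 1254 and 1045 CPM) and S100a14 (43.7, 55.1 and 30.9 CPM) lay above GR17 in GR18 and below it in GR19.

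Put side by side, the bulk lines and the single-cell libraries gave the same direction for S100a1, S100a13 and S100a16 and opposite directions for S100a6 and S100a10. S100a4 also went opposite ways, but it passed the bulk filter through the SOX4KO lines alone. Its bulk direction was therefore fixed beforehand and is not counted here. S100a6, the member called higher in bulk, was lower in both single-cell SOX4KO libraries. Its control level also differed between the assays, at 26.9 and 22.7 CPM in WT1 and WT3 (104 and 114 reads) and 1743 CPM in GR17. S100a11 (127 and 140 against 1176 CPM) and S100a10 (81.0 and 75.1 against 651 CPM) were also higher in GR17 than in WT1 and WT3. So were S100a16, S100a14, S100a4 and S100a8. For S100a1 the control levels were 82.6 and 94.8 CPM in bulk and 91.0 CPM in GR17. S100a13 was likewise close, at 10.9 and 12.55 CPM in bulk and 11.7 CPM in GR17. The cause of these gaps, and their part in the bulk differences, was not tested. The assays differ in library chemistry and in how reads were counted, and they may differ in the lines sampled, since the labels do not tie the libraries to the bulk lines. These differences cannot be told apart here. Mitochondrial genes took 11.4%, 12.47% and 15.1% of UMIs in GR17, GR18 and GR19, and with these genes and Rn45s left out of the totals S100a6 still had differences of -0.52 and -0.77.

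**Figure D3:**
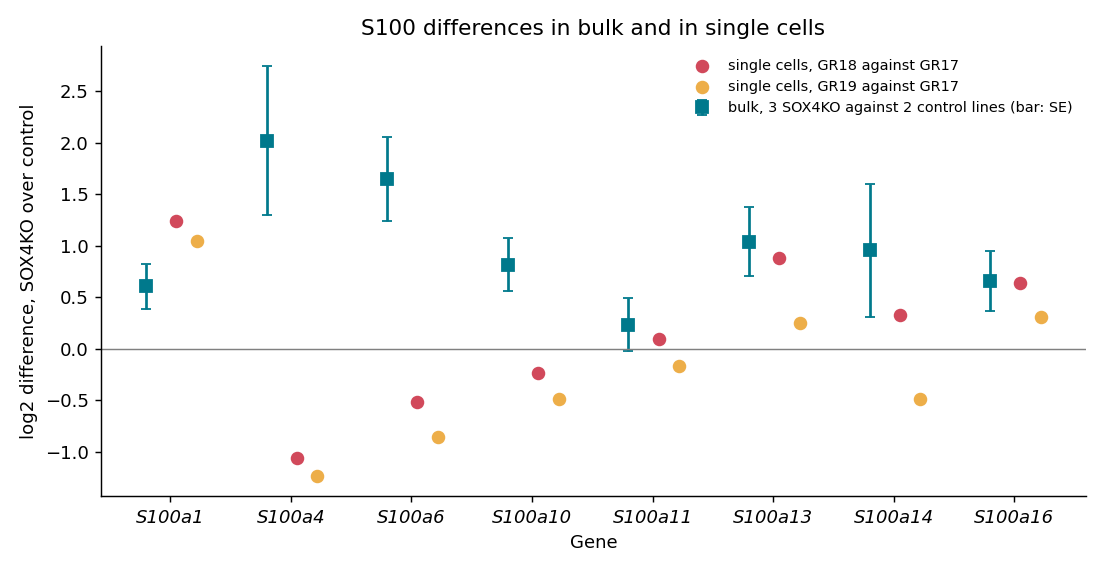
log2 difference of SOX4KO over control for 8 S100 genes, with the bulk edgeR estimate as a square with its SE and the GR18 and GR19 single-cell differences as points. S100a4, S100a6 and S100a10 lie above 0 in bulk and below 0 in both single-cell libraries, while S100a1, S100a13 and S100a16 lie above 0 throughout. S100a4 passed the bulk filter through the SOX4KO lines alone.

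The annexins did not follow S100a6 and S100a10 in the single cells. Of 8 annexins with at least 20 CPM, 8 were higher in both SOX4KO libraries and 0 lower in both, where 38.8% and 42.5% of the 6303 genes were. None of the 8 was higher by 2-fold, with median differences of 0.29 in GR18 and 0.21 in GR19. Anxa2 was at 420, 538 and 510 CPM in GR17, GR18 and GR19. Of the partners and receptors, 3 of 6 were higher in both and 3 lower in both, among them Ahnak at 310, 474 and 577 CPM.

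To see which cells carried each member, cells were clustered with the S100 genes left out of the variable genes, and 7 clusters were found. Clusters A (230 cells, 226 from GR17) and F (118 cells, 103 from GR17) held most control cells, while B (210 cells) had 9 GR17 cells and C (165) and G (108) had 0. The leading genes included the keratin Krt17 in A, the matrix protein Postn in B, Serpinf1 in C, Ly6d in F and the mitotic spindle gene Aspm in G. D (136 cells) and E (133) drew on all 3 libraries, with 16 and 15 GR17 cells. Keratin 14, a basal marker, was at 1865 CPM in A, B, C, F and G together and 286 in D and E. D and E had the highest summed level of the luminal markers, 4176 and 5432 CPM against 1029 to 1988 in the others, and the milk protein gene Csn3 was among the 10 leading genes of both. Krt8 was at 936 and 1176 CPM in D and E, against 484 to 741 in the others. In D, however, Cxcl2, Itgam, Cd209c and Pglyrp1, which are known from myeloid cells, ranked above Csn3 and Ltf, as did Efr3b and Mal2. None of these was among the 10 leading genes of E. Of the 269 cells of D and E, Cxcl2 had a UMI in 25 and Itgam in 7, so their ranks rest on few cells. With these mixed leading genes in D, D and E are given no cell type name. Since clusters were made from these cells, their levels are a description with no test, and D and E were put together after their markers were seen.

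**Figure D4:**
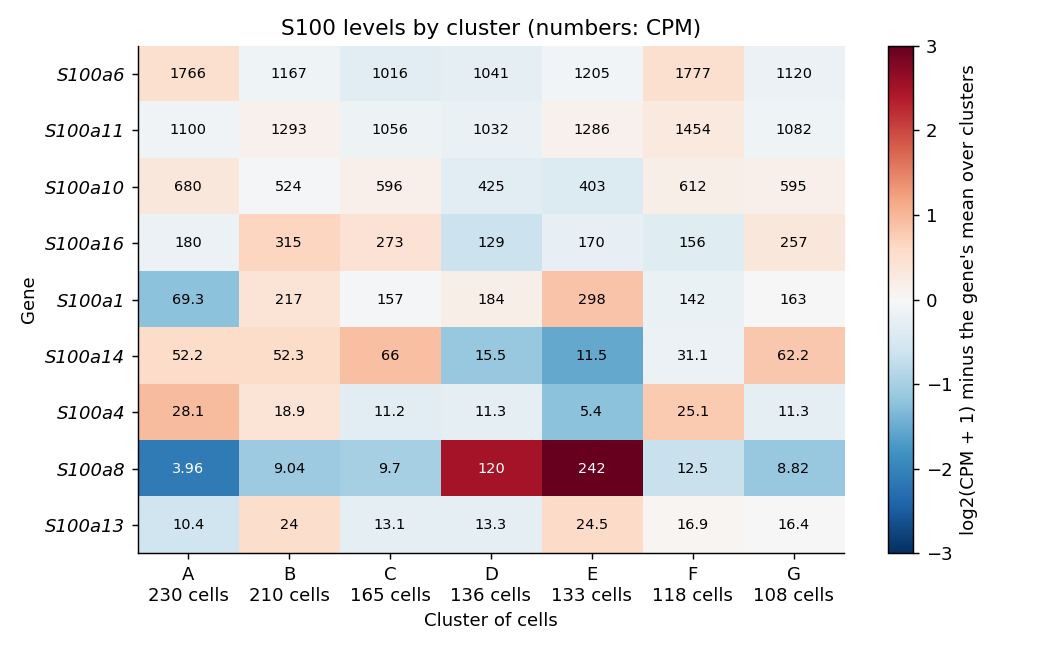
CPM of 9 S100 genes (rows, as printed numbers) in 7 clusters (columns, with their cell numbers), coloured by log2(CPM + 1) minus the gene's mean over the clusters. S100a8 is high in D and E (120 and 242 CPM), where S100a14 is low, and S100a6 is highest in A and F, the clusters of mostly control cells.

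Most S100a8 UMIs came from clusters D and E, which made up 24.5% of all cells and held 89.4% of its UMIs. In D and E it stood at 145 CPM (118 to 176) in GR17, 312 (291 to 335) in GR18 and 70.8 (62.3 to 80.1) in GR19, against 3.99, 12.9 and 8.21 CPM in the other clusters of the same libraries. Its level was thus higher in D and E in each of the 3 libraries, by 36.2, 24.2 and 8.63 times. A UMI of S100a8 was seen in 35.5%, 66.4% and 50.4% of D and E cells, and in 7.40%, 19.5% and 11.3% of the others, at median depths of 23212 and 19647 UMIs over all libraries.

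Within D and E the GR17 value rested on 31 cells, 1 of which held 72 UMIs. Without the top cell of each library the levels were 43.8, 227 and 65.5 CPM in GR17, GR18 and GR19, with GR17 the lowest. The share of cells that fell in D and E was 8.40% in GR17, 29.0% in GR18 and 36.2% in GR19. With D and E left out, S100a8 differed by 1.48 in GR18 and 0.88 in GR19, at 3.99, 12.9 and 8.21 CPM.

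The cells richest in S100a8 carried epithelial transcripts. All 12 cells with the most S100a8 UMIs lay in D or E, with 13 to 61 UMIs of Krt8, a luminal keratin, 104 to 1409 of Lcn2, an iron-binding defence protein of epithelia and neutrophils, and 13 to 150 of Cd14, a lipopolysaccharide receptor of monocytes and luminal cells. Of the 12 cells, 10 were from GR18, 1 from GR17 and 1 from GR19. Over all cells Krt8 had a UMI in 99.3%, Lcn2 in 100% and Cd14 in 84.0%, so the presence of these transcripts does not mark the 12. None of the 12 had a UMI of Ptprc, the common leukocyte antigen, or of Itgam, an integrin of myeloid cells. Of 13 blood-cell markers 6 were counted. Itgam was at 13.9 CPM in D and E and 0.233 elsewhere, with a UMI in 2.60% of D and E cells, and its part in the S100a8 level there was not tested. Ptprc was at 0 UMIs in D and E, which allows up to 0.439 CPM, Cd68 at 1.46 CPM, and Cd14, at 1033 CPM there and 196 elsewhere, made up nearly all of the list's sum.

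S100a14, S100a16, S100a10 and S100a4 showed the other pattern and were lower in D and E of every library. S100a14 was at 2.84 CPM (0.344 to 10.3) in D and E of GR17, from 2 UMIs, 21.7 (16.4 to 28.1) in GR18 and 10.4 (7.35 to 14.4) in GR19, against 47.8, 71.0 and 46.1 CPM in the other clusters. S100a16 was at 82.3, 174 and 137 CPM in D and E and 176, 301 and 258 CPM elsewhere, a ratio of 1.73 to 2.13. S100a10 was at 554, 398 and 401 CPM in D and E and 661, 627 and 511 CPM elsewhere. For S100a4 the levels in D and E were 21.3, 7.35 and 7.62 CPM, and elsewhere 27.4, 14.8 and 13.3 CPM, with overlapping intervals in GR17 and GR19. S100a13 had no common direction, at 7.10, 24.4 and 15.2 CPM in D and E and 12.1, 21.4 and 13.3 CPM elsewhere.

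S100a1 was higher in D and E of every library, at 166, 268 and 216 CPM in D and E of GR17, GR18 and GR19 and 83.5, 192 and 169 CPM elsewhere. The SOX4KO libraries were above GR17 both inside and outside these clusters, and with D and E left out the differences were 1.20 and 1.01. The lowest cluster was A, the largest control cluster, at 69.3 CPM, and F, the other control cluster, was at 142 CPM.

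Outside D and E, library and cluster can hardly be told apart for S100a6, since A and F were mostly GR17 cells and C and G had 0. S100a6 was at 1766 and 1777 CPM in A and F and at 1016 to 1205 CPM in the other 5 clusters. In clusters with at least 20 cells of a library, GR18 ranged from 1111 to 1326 CPM and GR19 from 867 to 1159, all below the 1766 and 1806 CPM of GR17 in A and F. In D and E, which hold cells of all libraries, S100a6 was at 1456 CPM (1369 to 1548) in GR17, 1194 (1152 to 1237) in GR18 and 975.2 (943 to 1008) in GR19. S100a11 varied least, by 1.41 times between its highest and lowest cluster.

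**Figure D5:**
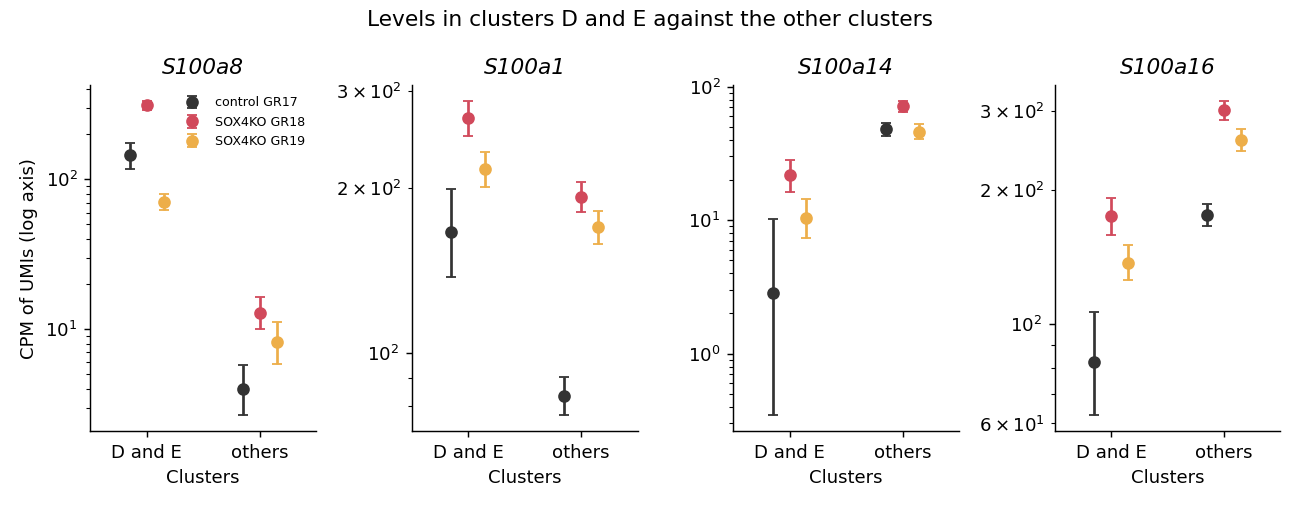
CPM of UMIs (log axes that differ between panels) of 4 S100 genes in clusters D and E and in the other clusters of each single-cell library, with exact 95% Poisson intervals for counting error. S100a8 and S100a1 are higher in D and E in all 3 libraries, and S100a14 and S100a16 are lower.

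Cells that were rich in 1 member were compared with those rich in another within each library, as Pearson correlations of log-scaled values over the 369, 369 and 362 cells. The points share plate, depth and cell state, so the values describe these libraries. S100a6 and S100a10 went together most, with r of 0.44, 0.28 and 0.34 in GR17, GR18 and GR19, while S100a1 and S100a10 ran opposite, with r of -0.20, -0.19 and -0.17. S100a1 and S100a11 had r of 0.19, 0.17 and 0.24.

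The genes most like 4 of the widely detected members were taken by their lowest r over the 3 libraries, among 6471 genes. S100a16 was closest to the basal keratin Krt14 (0.36), then Sparc (0.29) and Emb (0.28). S100a10 was closest to the actin-binding genes Pfn1 (0.28) and Cfl1 (0.28) and to the galectin Lgals1 (0.28), and S100a6 to Pfn1 (0.27), Rpl41 (0.25) and Anxa2 (0.23). S100a1 was closest to Efcab4a (0.24), Mfge8 (0.23) and Aes (0.22). All of these are weak correlations in sparse counts.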

How the data were processed

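Bulk RNA and single cells of organoids were profiled. For bulk, the deposited values are unnormalized read counts for each Ensembl gene (HTSeq 0.6.1p1 per the labels). For single cells, the deposited tables hold UMI counts in the 384 wells of each plate. Per the labels' processing notes, reads were aligned with STAR 2.4.2a to NCBIM37 (mm9). The strand setting of the counting is not given in the sources used here. The reference here, GRCm38, is another build, so it gave only names, exon lengths, neighbours and promoters.

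Bulk counts were tested with edgeR 4.0.16 (filterByExpr, TMM, quasi-likelihood) in R 4.3.3, adjusted over all 11682 genes, with DESeq2 1.42.0 as an alternative. The clones are the replicates, so p-values measure the spread between clones, and no replicate numbers pair them. Wells with fewer than 1000 UMIs were left out (15, 15 and 22). No doublet caller was run; 39 wells had over 2 times their library's median. The plates share their 384 well numbers by layout. Seurat 5.3.0 clustered log-normalized cells with the S100 genes removed from 2000 variable genes. Means of at least 20 CPM and a 2-fold difference, with 1 CPM added, set the single-cell background. Shares at 5000 UMIs are expected values after sampling without replacement. Scripts were tested on simulated data. All members were named, list genes where called, and the 3 closest genes of each member found in at least 50% of cells of every library. The closest genes of S100a11 are not reported here. Other genes were named after their values were seen. The members and lists were chosen with earlier results of these data known.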

Additional observations from a re-analysis of the deposited data

Results flagged for a closer look

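S100a4, S100a6 and S100a10 differed in direction between the assays. In bulk every SOX4KO line was above both controls, with log2 fold changes of 2.02, 1.65 and 0.82, of which that of S100a4 rests on few reads and passed the filter through the SOX4KO lines alone. In the single cells both SOX4KO libraries were below the control library, by differences of -1.06 and -1.23 for S100a4, -0.51 and -0.86 for S100a6 and -0.24 and -0.49 for S100a10. The difference between the assays was not tested. Groups of 2 and 3 samples are too small for the check for outlying samples.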

How the results depend on the processing

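Of the 8 tested members in bulk, 1 was called higher, as were 479 of all genes. The count was 3 with DESeq2 (676 of all genes), 7 with no filter beyond 1 count (1008 of 17930) and 0 at an adjusted p under 0.05 (241). It was 0 to 4 when each line was left out, with 30 to 624 of all genes called higher, and the cause was not tested. It was 1 with DESeq2 size factors and with a filter of 10 counts in 2 libraries. The log2 fold changes of S100a11 and S100a14 ranged from -0.0022 to 0.44 and from -0.017 to 1.34 when each line was left out, with the negative values without M4.

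Of 7 members in the single cells, 2 passed 2-fold in both libraries, of which S100a8 reached the mean of 20 CPM through the SOX4KO libraries. This count was 0 with 10 CPM added, since an added constant shrinks differences. It was 1 (S100a1) both without wells over 2 times the median UMIs, where S100a8 differed by 2.58 and 0.94, and without clusters D and E; these choices were made after seeing the data. It stayed at 2 with UMI minimums of 500 and 2000, totals without mitochondrial genes and Rn45s, a 1.5-fold limit, either SOX4KO library left out and the richest S100a8 cells left out. The share of cells with a UMI was higher in both SOX4KO libraries for 4 members, also at 5000 UMIs. The number of members with a 2-fold range over clusters was 5 or 6 in each clustering, and Spearman correlation gave 11 of the 15 closest genes. No share over all genes was taken beside the counts by cells or by clusters, so these describe the members only. No paired analysis was possible because the lines are separate clones whose numbers pair nothing. Depth limits S100a8 and S100a9 in bulk, and S100a14 in the 31 GR17 cells of D and E.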
